A study of Homo sapiens with 4 samples.

Results

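The genes described here encode the machinery that displays peptides on HLA class I molecules, together with its transcriptional activator. They were chosen by name: HLA-B, HLA-C, HLA-E, HLA-F, B2M, TAP1, TAP2, TAPBP and NLRC5, which are 9 of the 25066 genes listed, and every one of them was measured and tested. Expression came from RNA sequencing of NUDUL1, a human diffuse large B cell lymphoma line, as 2 libraries of cells labelled Control and 2 of cells labelled GNA13-deficient. All cells had been exposed to 10 nM U46619, a stable thromboxane A2 mimetic, for 24 h, so that no untreated cells entered the comparison. All of them also carried doxycycline-inducible Cas9, in a line grown from a single cell, and the transduced receptor Tbxa2r, through which U46619 activates Gα13. The control cells expressed a control sgRNA and the others an sgRNA against GNA13, with 1 guide for each genotype. The labels call the cultures duplicates and do not say whether they were grown separately, so p values measure the spread between these libraries, which may be technical.

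Class I molecules carry peptides from the cell interior to its surface, where CD8+ T cells inspect them. A polymorphic heavy chain pairs with β2-microglobulin in the endoplasmic reticulum, TAP1 and TAP2 pump peptides from the cytosol into it, and tapasin holds empty class I molecules at the transporter until a peptide is bound. NLRC5 is the activator that binds, through the RFX and NF-Y proteins, to promoters of class I genes, though not necessarily of every gene here. Lymphomas of germinal center origin are known to lose parts of the system.

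The 4 libraries held between 29209544 and 31537955 mapped reads. Of 8 B cell markers, 8 were above 3 reads in every library, and CD3D, CD3E, CD2, CD8B and TRAT1 of T cells were at the lowest listed value in all 4. The summed log2 level of 8 T cell markers, set mostly by CD4, ranged from 6.94 to 7.48 in control libraries and from 2.67 to 3.84 in the others. That of 7 monocyte markers ranged from 8.05 to 8.14 and from 5.88 to 6.19, against at least 15.8 for B cell markers. Of 8 germinal center B cell markers, 7 were listed and SERPINA9 was at the lowest value throughout. Their summed level, set mostly by MME, ranged from 14.22 to 14.28 in control libraries and from 14.08 to 14.12 in the others, but BCL6, the repressor that maintains the germinal center state, read 10.75 and 10.89 against 8.23 and 8.44 (a difference of -2.49), and LMO2 read 8.11 and 8.05 against 4.12 and 4.63 (-3.70). Of 10 fibroblast, epithelial and endothelial markers the summed level was 7.35 in both control libraries and 6.94 to 7.08 in the others, with PECAM1 lower (-3.03) and EPCAM higher (1.23). The part of these genes in the results below was not tested. GNA13 mRNA was not lower under its own guide: the control libraries read 12.46 and 12.45 and the libraries labelled GNA13-deficient 13.10 and 13.11 on the log2 scale, a difference of 0.65 (adjusted p = 0.00214, limma). The protein was not measured in these files, so every direction given here rests on the labels. In a bulk library, fewer cells of one kind and less RNA per cell cannot be told apart.

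Of the 9 genes, 4 were lower in the libraries labelled GNA13-deficient: those of the TAP transporter subunits, tapasin and HLA-E. TAP2 fell by 0.61, HLA-E by 0.49, TAPBP by 0.49 and TAP1 by 0.31 on the log2 scale. No member rose. The classical heavy chain genes HLA-B and HLA-C, the nonclassical HLA-F, the light chain B2M and the activator NLRC5 did not pass the test, with differences between -0.13 and 0.09. By limma over 16945 genes, 4 members passed downward and 0 upward at an adjusted p under 0.05, while 29.7% of all genes tested passed, 16.6% downward and 13.1% upward. At an unadjusted p under 0.05 the numbers were the same, 4 and 0, and limma's voom on recovered reads also called these 4 and none upward, with 5 and 0 at an unadjusted p under 0.05. The median difference of the members was -0.13, against -0.02 for all genes tested, of which 42.3% had a lower value than the median member. All genes tested include many that are scarcer than the 9 members. When the fit was limited to the 8473 genes with a mean value at or above the median, all 9 members stayed in. There 1854 genes passed downward and 2229 upward, and the members that passed were the same 4.

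**Figure D1:**
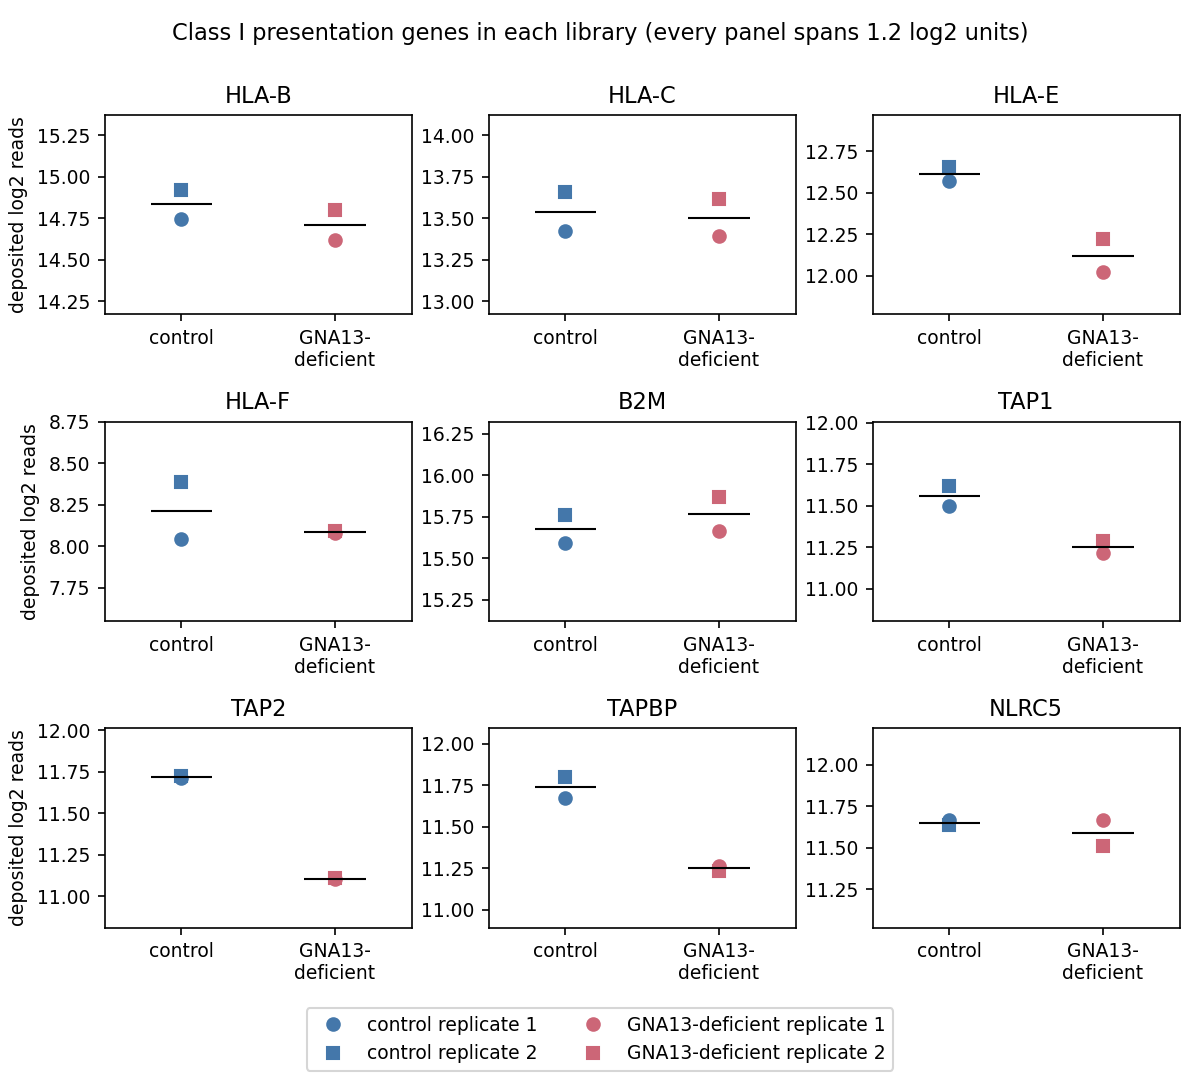
Deposited log2 reads of each of the 9 genes (y axis, a 1.2 log2 unit window per panel) in control libraries and in libraries labelled GNA13-deficient (x axis); circles are replicate 1, squares replicate 2 and lines group means. The genotypes are apart for HLA-E, TAP1, TAP2 and TAPBP and overlap for the other 5 genes.

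Levels were compared between genes only after division by the length of the canonical transcript in kilobases. In control libraries the log2 level per kilobase was highest for B2M, at 15.76, followed by HLA-B at 14.21, HLA-C at 12.91 and HLA-E at 11.27. The antigen processing genes came next, with TAP1 at 10.14, TAPBP at 9.95 and TAP2 at 9.22. NLRC5, at 8.89, and HLA-F, at 7.65, were the lowest. The gap between neighbours in this order was larger than the difference between replicates of either neighbour in each case, the narrowest being 0.18 between TAP1 and TAPBP, whose replicates differed by up to 0.13. In the libraries labelled GNA13-deficient the order was the same except that TAP2, at 8.61, came below NLRC5, at 8.83. These levels depend on the transcript chosen for each gene.

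HLA-B encodes a classical heavy chain and spans bases 31321649 to 31334844 of chromosome 6, minus strand (GRCh37, the same assembly as hg19). Its log2 values were 14.74 and 14.92 in control and 14.62 and 14.80 in libraries labelled GNA13-deficient. In each genotype replicate 2 was the higher, and the genotypes overlapped. The difference was -0.12 (standard error 0.11; 95% interval from -0.40 to 0.15; adjusted p = 0.437, limma). HLA-C, the neighbouring classical gene (chromosome 6, 31236526 to 31239907, minus strand), had values of 13.42 and 13.66 against 13.39 and 13.62. Its groups overlapped as well, and the difference was -0.04 (95% interval from -0.34 to 0.27; adjusted p = 0.860, limma). With libraries centred on their medians the differences turned to 0.083 for HLA-B and 0.17 for HLA-C, so no direction is given for either.

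HLA-E presents peptides cut from the leaders of other class I chains and is the ligand of the CD94-NKG2 receptors of natural killer cells. It spans bases 30457286 to 30461971 of chromosome 6, plus strand. Control libraries read 12.57 and 12.66, and libraries labelled GNA13-deficient 12.02 and 12.22. Both of the latter were below both controls. The difference was -0.49 (standard error 0.08; 95% interval from -0.71 to -0.27; adjusted p = 0.0144, limma), and on the linear scale expression fell by 28.9%. HLA-F, a nonclassical chain (chromosome 6, 29690552 to 29706305, plus strand), was the scarcest member, with between 254 and 340 recovered reads. Its values were 8.04 and 8.39 in control and 8.08 and 8.09 in libraries labelled GNA13-deficient. Control replicate 2 stood above the other 3 libraries, which lay within 0.052 of each other, and without it the difference was 0.046 in place of -0.13 (adjusted p = 0.563 with all 4 libraries, limma).

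B2M, the light chain that class I molecules need to leave the endoplasmic reticulum, spans bases 45003556 to 45011049 of chromosome 15, plus strand. It was the most abundant member. Its values were 15.59 and 15.76 in control libraries and 15.67 and 15.87 in libraries labelled GNA13-deficient. Replicates differed by more than the genotypes did. The difference was 0.09 (95% interval from -0.22 to 0.40; adjusted p = 0.625, limma).

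TAP1 and TAP2 are the paired subunits of the peptide transporter and sit close together in the class II region of chromosome 6, TAP2 from 32789610 to 32806516 and TAP1 from 32812986 to 32821593, both on the minus strand. TAP2 read 11.71 and 11.72 in control and 11.10 and 11.11 in libraries labelled GNA13-deficient. Replicates of either genotype were almost superimposed, at 0.009 and 0.008 apart. The difference was -0.61 (standard error 0.05; 95% interval from -0.74 to -0.48; adjusted p = 0.00222, limma), and on the linear scale expression fell by 34.5%. TAP1 read 11.50 and 11.62 against 11.22 and 11.29, again without overlap, and differed by -0.31 (standard error 0.07; 95% interval from -0.48 to -0.14; adjusted p = 0.0257, limma). TAPBP encodes tapasin, the bridge between the transporter and the class I chain, and spans bases 33267471 to 33282061 of chromosome 6, minus strand. Its values were 11.67 and 11.80 in control and 11.26 and 11.24 in libraries labelled GNA13-deficient. The genotypes did not overlap, and the difference was -0.49 (standard error 0.06; 95% interval from -0.65 to -0.32; adjusted p = 0.00701, limma). All 4 falls were separations without overlap, and no member lay apart upward. Over all genes tested 65.3% lay apart, 34.0% downward and 31.3% upward. These shares include genes near the floor, where the value of 1 read differed between libraries, so that they are a loose background for the members.

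The calls differed in how far they depended on the analysis. That of TAP2 held in each of the 10 alternatives that used all 4 libraries, with an adjusted p of at most 0.0295 from limma. TAPBP missed the threshold without a filter on low values (adjusted p = 0.0597, limma) and without a variance trend (adjusted p = 0.0548, limma). HLA-E and TAP1 also missed it there and when libraries were centred on their medians, where the adjusted p values from limma were 0.0912 for HLA-E, at a difference of -0.28, and 0.393 for TAP1, at a difference of -0.10.

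NLRC5 spans bases 57023397 to 57117443 of chromosome 16, plus strand. Its values were 11.66 and 11.63 in control libraries and 11.67 and 11.51 in libraries labelled GNA13-deficient, so that replicate 1 of both genotypes coincided and only replicate 2 was apart. The difference was -0.06 (standard error 0.07; 95% interval from -0.24 to 0.12; adjusted p = 0.561, limma), and it turned to 0.15 with median centring. Among 8472 other genes at or above the median level, those whose 4 library values lay nearest to its own, each taken relative to the control mean, were CBLB, MED1 and ARFGEF2, at Euclidean distances of 0.011, 0.014 and 0.016 on the log2 scale. As many as 250 genes lay within 0.1, so the likeness over 4 libraries is a weak description.

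**Figure D2:**
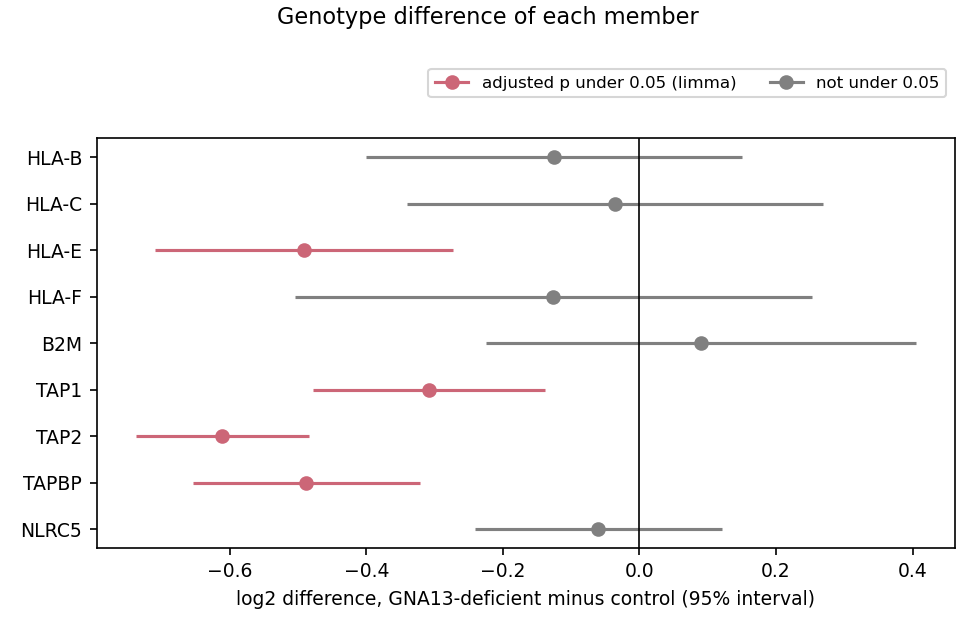
Log2 difference between GNA13-deficient and control libraries for each gene (x axis, point) with its 95% interval from limma (line), 2 libraries per genotype; red marks an adjusted p under 0.05. The intervals of HLA-E, TAP1, TAP2 and TAPBP lie below 0 and the other 5 include it.

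A difference of log2 values within one library does not depend on how libraries were scaled. Relative to B2M, 7 of the other 8 members were lower in both libraries labelled GNA13-deficient than in both control libraries, which was also true of 36.2% of all genes tested. HLA-B minus B2M was -0.85 and -0.84 in control libraries and -1.05 and -1.07 in the others, a shift of -0.21 with replicates within 0.019. Here the genotypes of HLA-B were apart, although they overlapped in the deposited values. HLA-C minus B2M went from -2.17 and -2.11 to -2.28 and -2.25. The shifts against B2M were -0.58 for HLA-E, -0.70 for TAP2, -0.58 for TAPBP, -0.40 for TAP1 and -0.22 for HLA-F. NLRC5 minus B2M overlapped, with -3.93 and -4.13 against -4.00 and -4.36. With 2 libraries against 2, an exact two-sided permutation test cannot go below 0.333, the p of each of the 7. The median shift of the 8 genes was -0.31 against B2M and depended on the reference: it was -0.70 against GAPDH, -0.58 against ACTB and -0.44 against TBP, which themselves had differences of 0.49, 0.37 and 0.22. Against GAPDH and ACTB 8 of 8 members were lower without overlap, and against TBP 7 of 8, where 68.7%, 63.4% and 55.1% of all genes were. Genes near the floor are included in these shares too.

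**Figure D3:**
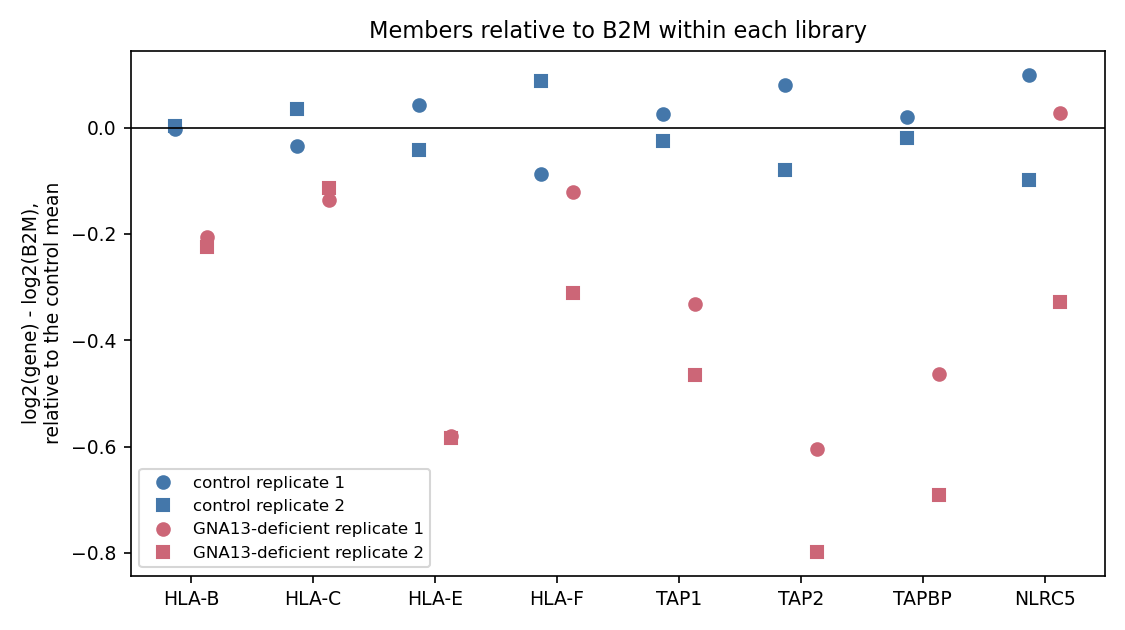
Log2 value of each of 8 genes minus that of B2M in the same library, set to 0 at the control mean (y axis), by gene (x axis); circles are replicate 1, squares replicate 2, blue control and red GNA13-deficient. Both red points lie below both blue points except for NLRC5.

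The promoters of these genes are shown because members that fell and members that did not pass the test can be set side by side by their regulatory letters. RefSeq promoter windows (table built on GRCh38.p14) were given for 7 of the 9 members, and HLA-E and NLRC5 were not among them. Each was found by exact match at 1 place in GRCh37, whose coordinates are given. The last 200 bases before the RefSeq start are printed 5′ to 3′ in the direction of the gene. RefSeq starts differ from the ends of the gene spans given above. The windows of HLA-B, HLA-F and TAPBP lie inside those spans and those of HLA-C, B2M and TAP1 overlap them. Only that of TAP2 lies outside. Capitals mark matches, on either strand, to CCAAT (bound by NF-Y), TGACG (the core of a CREB or ATF site), GAAA repeated after a gap of any 2 bases, its shorter and overlapping form AANNGAAA (interferon-response letters bound by IRF factors), and the NF-kB motif.
HLA-B, chr6:31324957-31325156, minus strand: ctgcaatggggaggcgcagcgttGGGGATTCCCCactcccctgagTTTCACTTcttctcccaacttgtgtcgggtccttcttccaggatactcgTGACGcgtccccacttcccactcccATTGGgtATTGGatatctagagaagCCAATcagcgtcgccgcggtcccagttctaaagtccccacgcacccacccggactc
HLA-C, chr6:31239870-31240069, minus strand: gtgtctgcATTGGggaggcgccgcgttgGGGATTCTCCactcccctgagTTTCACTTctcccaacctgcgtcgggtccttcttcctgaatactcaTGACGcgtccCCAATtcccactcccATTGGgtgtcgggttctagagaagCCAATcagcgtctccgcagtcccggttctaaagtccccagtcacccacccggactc
HLA-F, chr6:29691011-29691210, plus strand: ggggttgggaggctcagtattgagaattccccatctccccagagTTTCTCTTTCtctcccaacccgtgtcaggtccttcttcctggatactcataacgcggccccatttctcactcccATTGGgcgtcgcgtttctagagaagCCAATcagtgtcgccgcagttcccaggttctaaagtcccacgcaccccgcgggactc
B2M, chr15:45003515-45003714, plus strand: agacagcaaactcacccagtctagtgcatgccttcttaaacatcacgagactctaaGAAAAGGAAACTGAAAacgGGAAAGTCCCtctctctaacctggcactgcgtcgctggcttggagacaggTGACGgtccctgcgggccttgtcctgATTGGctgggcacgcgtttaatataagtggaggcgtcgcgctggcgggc
TAP1, chr6:32821482-32821681, minus strand: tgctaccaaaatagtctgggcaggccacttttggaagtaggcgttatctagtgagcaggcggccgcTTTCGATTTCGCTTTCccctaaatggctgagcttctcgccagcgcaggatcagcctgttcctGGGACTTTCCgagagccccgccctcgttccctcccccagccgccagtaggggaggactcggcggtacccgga
TAP2, chr6:32806517-32806716, minus strand: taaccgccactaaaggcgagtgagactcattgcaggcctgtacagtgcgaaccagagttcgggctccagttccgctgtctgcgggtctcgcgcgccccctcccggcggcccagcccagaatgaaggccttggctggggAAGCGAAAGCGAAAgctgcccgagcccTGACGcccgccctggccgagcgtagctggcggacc
TAPBP, chr6:33281856-33282055, minus strand: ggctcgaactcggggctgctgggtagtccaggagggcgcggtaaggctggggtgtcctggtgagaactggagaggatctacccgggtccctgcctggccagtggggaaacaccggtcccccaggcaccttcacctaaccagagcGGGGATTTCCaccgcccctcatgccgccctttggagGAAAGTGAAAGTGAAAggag

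In the 250 bases before the start, CCAAT was present in 5 of the 7 promoters (HLA-B, HLA-C, HLA-F, B2M and TAP1), against 32.0% of 35116 RefSeq promoters. TGACG was present in 4 of 7 (HLA-B, HLA-C, B2M and TAP2), against 21.2%. The repeated GAAA was in 5 of 7 (HLA-F, B2M, TAP1, TAP2 and TAPBP), against 3.0%, and its shorter form in 7 of 7, against 20.3%. The NF-kB motif was in 5 of 7 (HLA-B, HLA-C, B2M, TAP1 and TAPBP), against 10.0%. HLA-B and HLA-C, which overlapped between genotypes, share an order of NF-kB motif, AANNGAAA, TGACG (from base 106 before the start in HLA-B and base 105 in HLA-C) and CCAAT, with a further CCAAT upstream in HLA-C. TAP1, TAP2 and TAPBP, which fell, each hold the repeated GAAA, but so do B2M and HLA-F, which did not pass. These matches are letters in a window, not measured binding.

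Near-identical sequence limits how reads of these genes could be assigned. Of the stretches of 50 bases in the canonical transcript, 2.6% in HLA-B, 6.8% in HLA-C, 6.2% in HLA-E and 1.9% in HLA-F, and 1.2% in TAP1, also occur in transcripts of other genes, against none in B2M and NLRC5. In TAP2 35.3% are shared, all with an overlapping locus annotated as a readthrough gene (ENSG00000250264), and in TAPBP 7.1% are, spread over transcripts of 485 other genes. These shares are for the reference alleles, and the alleles of the cells can differ. Whether reads that fit several genes were dropped or divided, and which strand setting was used, is not given in the sources used here.

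The other genes of the pathway were grouped in lists by their known roles, with earlier results of these data known. Of all the genes in these lists 39 passed, but 14 did without a filter on low values and 11 without a variance trend. The number tested is given with each list. Over all genes 5037 of 16945 (29.7%) passed, 13.1% upward and 16.6% downward. Without a filter 1999 of 25066 did (815 upward and 1184 downward), and without a variance trend 2718 of 16945. With the filter at the median mean value 48 genes of the lists passed, and 4083 of 8473 did over all. Among 16 tested class I and class I-like chains outside the 9, 3 rose and 0 fell, and all 3 that rose belong to the CD1 family, β2-microglobulin partners that present lipids. CD1C read 5.73 and 5.65 in control and 8.85 and 9.08 in libraries labelled GNA13-deficient, a rise of 3.28 (standard error 0.15, adjusted p = 0.00101, limma). CD1D, which presents lipids to natural killer T cells, read 5.96 and 6.35 against 7.55 and 7.48, a rise of 1.36 (adjusted p = 0.00946, limma). CD1A was scarce, at 3.19 and 2.78 against 4.29 and 5.01, and its adjusted p of 0.0419 from limma became 0.0530 with voom on recovered reads and 0.0654 without a variance trend. Without a filter neither CD1A (adjusted p = 0.193, limma) nor CD1D (adjusted p = 0.0706, limma) passed. The median of this list was nevertheless -0.25, and CD1B was at the lowest listed value in every library. The list's counts upward and downward were 3 and 1 with quantile normalization and 2 and 2 with voom on recovered reads. They were 4 and 0 with median centring and 1 and 0 without a filter. Over all genes the shares were 16.2% and 15% with quantile normalization, 11.2% and 18.3% with voom, and 25.4% and 11.4% with median centring.

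In the list of loading and trimming factors, 1 of 11 tested genes rose and 2 fell, against 5 and 0 with median centring and 0 and 0 without a filter. Over all genes 13.1% passed upward and 16.6% downward, and 25.4% and 11.4% with median centring. TAPBPL, a tapasin-related peptide editor, fell by 0.41 (adjusted p = 0.0418, limma) and ERAP1, the aminopeptidase that trims peptides in the endoplasmic reticulum, fell by 0.35 (adjusted p = 0.0159, limma). The disulfide isomerase PDIA6 rose by 0.31 (adjusted p = 0.0367, limma). With median centring TAPBPL was at -0.20 and ERAP1 at -0.14, and neither passed (adjusted p = 0.249 and 0.168, limma). TAPBPL and PDIA6 did not pass with quantile normalization either (adjusted p = 0.124 and 0.112, limma). The list's median was 0.02.

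The immunoproteasome replaces catalytic subunits of the proteasome with forms that favor class I ligands, and its genes PSMB8 and PSMB9 lie beside the TAP genes. Of its list of 5, 1 rose and 0 fell, against 0 and 0 without a filter and 2 and 3 with the replicate number as a block. For this list and those below, the shares over all genes were 13.1% upward and 16.6% downward. They were 18% and 21% with the block, and 25.4% and 11.4% with median centring. PSME2, a subunit of the PA28 activator, read 12.79 and 12.94 in control and 13.29 and 13.47 in libraries labelled GNA13-deficient, a rise of 0.51 (adjusted p = 0.0160, limma, and 0.122 without a filter). Its partner PSME1 had a difference of 0.16 (adjusted p = 0.133, limma). The catalytic subunits had differences of -0.44 for PSMB8, -0.31 for PSMB9 and -0.16 for PSMB10 (0.046 with median centring), with adjusted p values of 0.0628, 0.0911 and 0.225 from limma. PSMB8 read 11.98 and 12.20 against 11.50 and 11.81, without overlap. With voom on recovered reads PSMB8 and PSMB9 passed (adjusted p = 0.0142 and 0.0267, limma). They also did with the filter at the median mean value (adjusted p = 0.00617 and 0.0230, limma). PSMB8 passed with pseudocounts of 1 and 10 and with quantile normalization as well (adjusted p = 0.0446, 0.0411 and 0.0252, limma). It did not without a filter, without a variance trend or with median centring (adjusted p = 0.294, 0.177 and 0.293, limma). Among 8 constitutive subunits, chaperones and other activators, 3 rose and 0 fell: POMP by 0.46, PSMG1 by 0.43 and PSME3 by 0.25. The numbers were 6 and 0 with median centring and 0 and 0 without a filter. Of 10 cytosolic peptidases 3 rose and 3 fell, against 5 and 0 with median centring, with BLMH up by 0.49, TPP2 by 0.41 and LAP3 by 0.33 and PREP at a difference of -0.38 among those that fell (-0.18, adjusted p = 0.163 in limma, with median centring).

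Among regulators, none of the 8 RFX, NF-Y and CREB partners of NLRC5 passed in limma, with differences between -0.25 and 0.25, and 1 (NFYB, at 0.25) had an unadjusted p under 0.05. With median centring 3 of the 8 were called higher, with the filter at the median mean value 1, and with the replicate number as a block 1 higher and 1 lower. Of 13 tested genes of the interferon-γ, IRF and STAT list, 0 rose and 4 fell as deposited, but 3 rose and 1 fell with median centring, and none passed without a filter. Over all genes 13.1% passed upward and 16.6% downward as deposited, and 25.4% and 11.4% with median centring. STAT2, which relays type I interferon signals, read 11.43 and 11.34 in control and 10.52 and 10.30 in libraries labelled GNA13-deficient, a difference of -0.97 (adjusted p = 0.00298, limma, and 0.0519 without a filter). IRF8, IRF4 and the receptor chain IFNGR2 had differences of -0.58, -0.32 and -0.26 that passed as deposited. With median centring they were -0.38, -0.12 and -0.06 and did not pass (adjusted p = 0.0598, 0.263 and 0.543, limma). In the class II list of 15 genes, 1 rose and 5 fell, against 2 and 2 with median centring and 1 and 2 without a filter. The activator CIITA, HLA-DRA and CD74 did not pass, with differences of -0.15, -0.12 and -0.04 that turned positive with median centring, while the thiol reductase IFI30 fell by 2.53, HLA-DOA by 0.62 and HLA-DMB by 0.56 (adjusted p = 0.0506, limma, with median centring), and HLA-DQA1 rose by 0.58.

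**Figure D4:**
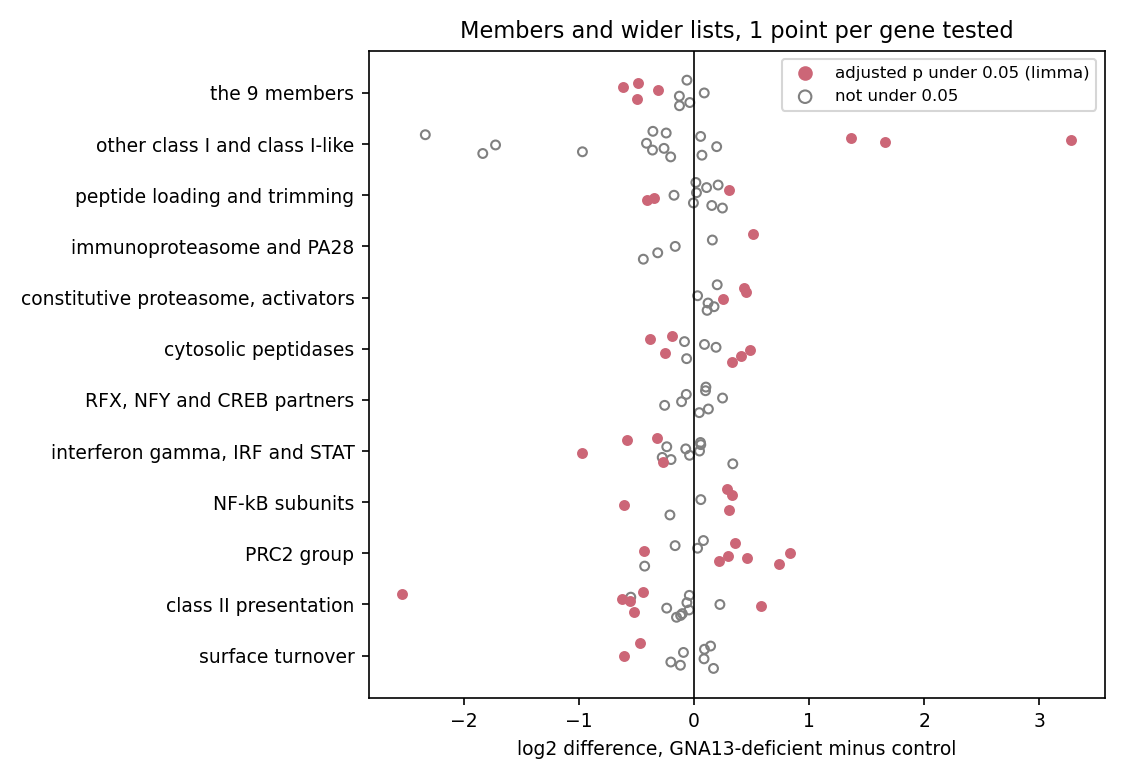
Log2 difference between GNA13-deficient and control libraries (x axis) for the 9 members and for each gene tested in the wider lists (rows); red points had an adjusted p under 0.05 in limma and open points did not. The 3 red points of the class I-like row are CD1D, CD1A and CD1C at 1.36, 1.66 and 3.28.

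As many as 7 of the 9 members lie in one region of chromosome 6, and their neighbours were counted from the same fit. Between HLA-F and TAPBP, 112 of 317 other annotated genes were matched by symbol and tested. Genes listed under another symbol were missed. Of the 112, 27 were lower and 7 higher, with a median difference of -0.23. The shares were 24.1% lower and 6.25% higher, against 16.6% and 13.1% over all genes tested. Within 500 kb of B2M 1 of 9 tested genes was lower and 1 higher, and within 500 kb of NLRC5 3 of 18 were lower and 0 higher. The share of lower genes depended on the scaling. With median centring 13 genes of the region were lower and 14 higher, and its share of lower genes was 11.6% against 11.4% over all genes tested. With quantile normalization the region held 31 lower and 15 higher genes (27.7% lower, against 15.0%). The numbers were 35 and 11 with the replicate number as a block (31.2% lower, against 21.0%). Without a variance trend they were 16 and 4 (14.3% lower, against 10.2%). Without a filter they were 13 and 3, where 1184 of 25066 genes were lower and 815 higher over all. The region's total in that setting is not given. The lowest difference among its genes that passed, named after the values were seen, was that of AIF1, a macrophage gene, at -3.44.

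**Figure D5:**
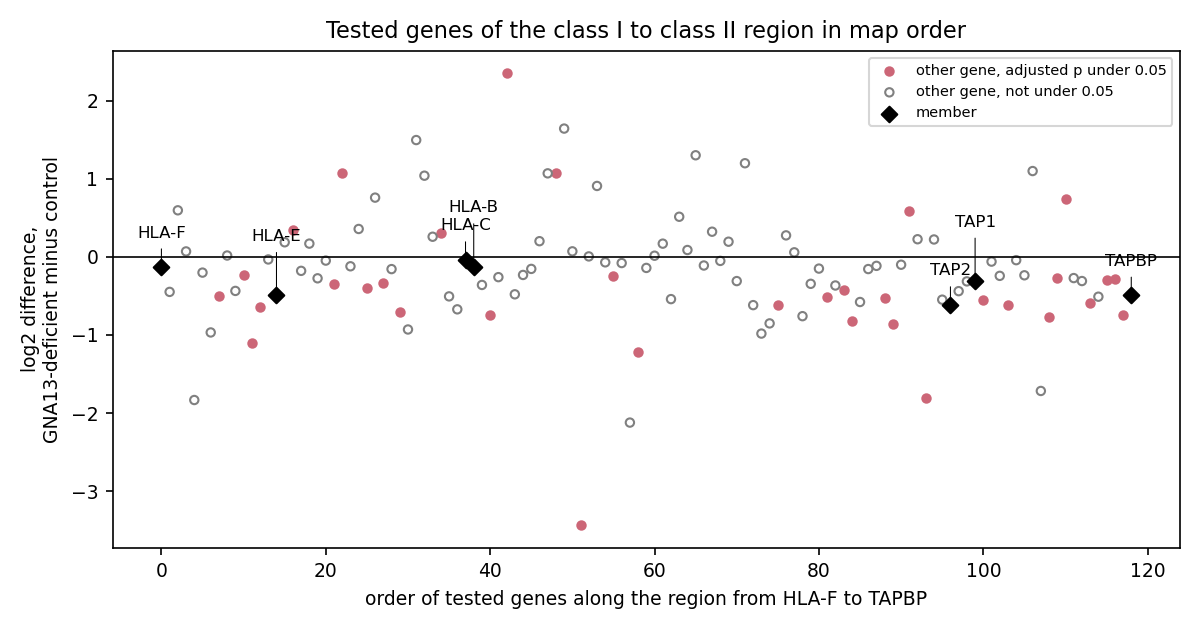
Log2 difference between GNA13-deficient and control libraries (y axis) of the tested genes between HLA-F and TAPBP in map order (x axis, rank); diamonds are members, red points other genes with an adjusted p under 0.05 in limma and open points the rest. Of the 112 other genes, 27 passed downward and 7 upward.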

How the data were processed

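RNA of NUDUL1 cells under U46619 was sequenced in 4 libraries. Alignment by the authors was to hg19 with STAR. HTSeq is named in the submitters' processing notes, and versions, annotation and method of normalization are not given in the sources used here. The deposited values are normalized reads per gene on the log2 scale, with a row of total mapped reads on a linear scale, used only for depth. The labels and the methods give different read lengths.

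Genotypes were compared with limma 3.58.1 in R 4.3.3 (genotype as the only term, mean-variance trend, 2 residual degrees of freedom) for genes with a value over 0 in 2 or more libraries, without a pseudocount. Adjusted p values are Benjamini-Hochberg over all 16945 genes tested. Whole reads were recovered from the steps of the values: up to 400 reads, 100% of nonzero values were whole within rounding in each library, adding up to 99.997% to 100.003% of the totals. Genes at 3 reads or fewer were taken as at the floor, for counting error only. Replicate libraries differed beyond sampling noise (chi-square per gene of 11.7 and 11.4).

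Coordinates and transcript lengths are from GENCODE v44lift37 on GRCh37 and promoters from RefSeq, searched with Python 3.11.15. The script was tested on simulated data. Members and lists were chosen with earlier results of these data known. Named beyond the members were GNA13, the up to 4 largest changes past the threshold per list, the immunoproteasome genes, CIITA, HLA-DRA, CD74 and the genes nearest to NLRC5; CD1B, GAPDH, ACTB and TBP served as values beside a result, and AIF1 was named after its value was seen. Alternatives changed the filter, the pseudocount (1 and 10), the scaling, the variance model, the replicate block, voom on recovered reads and the libraries kept.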

Additional observations from a re-analysis of the deposited data

How the results depend on the processing

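Results that rest on calls depended on the filter and on the variance trend. Without a filter, 1 member (TAP2) was called lower, 1999 genes passed in all and 14 genes of the wider lists did; without a variance trend the numbers were 1, 2718 and 11, against 4, 5037 and 39. The causes were not tested. With median centring the all-gene median went from -0.02 to 0.18. It called 2 members lower (TAP2 and TAPBP) and gave a member median of 0.082. Of its calls 69.1% were upward, against 2218 of 5037 as deposited and 54.6% with the filter at the median mean value. Under median centring HLA-B was 0.083, HLA-C 0.17, HLA-F 0.082, NLRC5 0.15, PSMB10 0.046, CIITA 0.057, HLA-DRA 0.093 and CD74 0.17, and under quantile normalization HLA-F was 0.074 and the member median -0.21. With the replicate block, 4 members and 60 genes of the wider lists were called, PSMB8, PSMB9 and PSMB10 among the latter, and no member's call changed. No source pairs the libraries; the deviations of same-numbered libraries correlated at 0.453 over 8473 genes, which are not independent. Relative to GAPDH, ACTB and TBP the median within-library shift was -0.70, -0.58 and -0.44, and with 1 library left out it ranged from -0.40 to -0.27.

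Each fit on 3 libraries assumes that the lone library varies like the other genotype and has 1 residual degree of freedom. No gene passed the adjusted threshold in any of these 4 fits, so counts of members, wider genes and all genes were 0 to 0, with 5257 to 5600 genes at an unadjusted p under 0.05; this says nothing of stability. The member median ranged from -0.30 to -0.076. TAP2 ranged from -0.62 to -0.61, TAPBP from -0.55 to -0.42, HLA-E from -0.59 to -0.39 and TAP1 from -0.37 to -0.25. HLA-C ranged from -0.15 to 0.083, HLA-F from -0.30 to 0.046, B2M from -0.010 to 0.19, NLRC5 from -0.14 to 0.017 and CD74 from -0.12 to 0.045. Every other alternative left the direction of the members as reported.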

Other observations

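NF-kB subunits, which act on class I promoters, moved both ways: of 6 tested (1 higher and 0 lower without a filter, 0 and 0 without a variance trend), NFKB2, RELB and the inhibitor gene NFKBIA rose by 0.33, 0.30 and 0.29, and REL fell by 0.61. Polycomb repressive complex 2 can silence class I genes. In a list of 11 of its genes and related factors, not all particular to it, 6 rose and 1 fell (2 and 0 without a variance trend). RBBP7 was higher by 0.84, the methyltransferase EZH2 by 0.74 and SUZ12 by 0.46, and JARID2 was lower by a difference of -0.44. Of 9 tested genes of class I turnover, 0 rose and 2 fell (3 and 2 with median centring), TMEM129, a ubiquitin ligase of the endoplasmic reticulum, by 0.60 and TSG101, a sorting factor of endosomes, by 0.46. Adjusted p values of the genes named here lay between 0.00210 and 0.0251 in limma. Beside these counts, 13.1% of all genes passed upward and 16.6% downward. The shares were 5.82% and 10.2% without a variance trend, and 25.4% and 11.4% with median centring.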
